A study of Mus musculus with 12 samples.

Results

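The 10 heat shock chaperone genes described here were Hspa8, Hspa1a, Hspa5, Hspa9, Hspa4, Hsph1, Hspa14, Dnajb1, Hsp90aa1 and Hsp90ab1, of 55335 genes in the count tables, and all 10 had a row in both tables. Hspa8 was chosen by its lower RNA-seq and footprint counts in knockout thymocytes, so its knockout values are given as a description with no test. The other 9 were listed by name. RNA-seq and ribosome footprint libraries came from thymocytes of wild-type (WT) mice and of mice lacking the miR-181a/b-1 locus (KO), with 3 libraries per genotype and assay. In all 4 groups the mice were 6 weeks old and kept free of specific pathogens, the thymus was passed through 70 µm strainers, and the cells went at once into saline with 0.1 mg/ml cycloheximide, which stalls ribosomes on their mRNA. The labels name no strain and no sex, and mention no sort of the cells. In bulk samples such as these fewer cells of a type and less RNA per cell cannot be told apart.

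HSP70 proteins bind unfolded stretches of other proteins and release them in a cycle of ATP binding and hydrolysis. J-domain proteins such as Dnajb1 deliver clients and stimulate hydrolysis, and exchange factors such as Hspa4 and Hsph1 of the HSP110 branch reopen the cycle. Many clients, kinases and steroid receptors among them, pass on to HSP90 dimers. Heat shock factor 1 drives the inducible members after stress, and the unfolded protein response of the endoplasmic reticulum (ER) drives Hspa5. Developing thymocytes depend on HSP90 clients such as the kinase Lck.

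The deleted locus encodes a pair of microRNAs that share the seed, bases 2 to 8 (capitals), by which a microRNA pairs with its targets. The mature sequences from RefSeq (GRCm38.p6, chromosome 1, plus strand) are shown because their loss defines the KO group:
mmu-miR-181a-5p: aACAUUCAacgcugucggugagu
mmu-miR-181b-5p: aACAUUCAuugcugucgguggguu

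RefSeq promoters (GRCm38.p6), 250 bases before to 50 bases after a transcription start, were matched for 6 of the 10 members: Dnajb1, Hsph1, Hspa14, Hspa1a, Hspa4 and Hspa5. They were searched on both strands for a heat shock element, GAANNTTCNNGAA or TTCNNGAANNTTC, and for an ER stress element, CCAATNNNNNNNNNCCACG or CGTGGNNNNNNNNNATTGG. The heat shock element lay in 0.603% of 32851 promoters and the ER stress element in 0.119%. Hsph1 was the one member of these 6 with the first motif, and Hspa5 the one with the second. Chordc1, an HSP90 cochaperone, and Hspd1, the mitochondrial chaperonin, are shown beside them as network genes with a heat shock element. Capitals mark the motif, and a match describes the letters, not a bound site:
Hsph1: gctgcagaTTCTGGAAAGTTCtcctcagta
Chordc1: tgcaaccgGAACGTTCGGGAAaattcctga
Hspd1: gccttccgGAAGGTTCTAGAAcggaccgtg
Hspa5: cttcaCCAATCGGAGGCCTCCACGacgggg

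The Hsph1 window is chr5:149636279-149636308 on the minus strand, with the motif 16 to 28 bases after 1 of its 2 annotated starts. The same motif lies 37 to 49 bases after the other start. The Chordc1 window is chr9:18292255-18292284 on the plus strand and spans the start. The Hspd1 window is chr1:55088050-55088079 on the minus strand, with the motif 139 to 127 bases before the start. The Hspa5 window is chr2:34772020-34772049 on the plus strand, with the motif 65 to 47 bases before the start.

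Reads in genes ranged from 4479182 to 8180286 per RNA-seq library and from 4069968 to 17859770 per footprint library, the shallowest of all being footprint KO library 3. The microRNA row Mir181a-1, the check of the labels, held 147.7 ± 16.8 CPM (counts per 1000000 reads, with library sizes scaled by TMM) in WT footprint libraries and 0.827 ± 0.316 in KO (SD, n = 3 each). In RNA-seq it held 2.80 ± 1.61 and 3.26 ± 1.59 CPM, from 57 WT and 67 KO reads. Those groups overlapped, so this row checks the genotype labels of the footprint libraries only. Summed levels of 8 thymocyte markers were 11316 to 12649 CPM in WT and 10382 to 11359 CPM in KO RNA-seq, and 18512 to 19691 CPM and 17977 to 19155 CPM in footprints. In footprints 4 of the 8 were called by edgeR (Cd4, Lck, Ptcra and Rag1, 1 higher and 3 lower in KO), beside 17.6% of all genes, and Cd4 held with the replicate number as a block. The marker sums of 7 other cell types ranged from 8.95 CPM (dendritic, RNA-seq) to 211.9 CPM (endothelium, RNA-seq), and none of those genes was at 0 in all libraries of an assay. The B cell marker Cd79b was called higher in KO footprints, also with the block. The 4 B cell markers summed to 42.9 to 56.2 CPM in WT and 55.8 to 73.6 CPM in KO footprints, with 3 higher and 1 lower. In RNA-seq 2 of them were higher and 2 lower, and 0 were called. Dendritic markers summed to 39.4 to 49.3 CPM in WT footprints and 26.7 to 36.7 CPM in KO. All 4 were lower, Flt3 and Siglech were called, and Siglech held with the block. Thymic epithelial markers summed to 67.1 to 73.5 CPM in WT and 53.7 to 60.3 CPM in KO footprints, with 3 lower and 1 higher. Endothelial markers summed to 143.3 to 147.7 and 154.1 to 159.0 CPM, and of the 3 tested 2 were higher and 1 lower. Epcam (thymic epithelium) and Alas2 (erythroid) were called lower, and Pdgfrb (fibroblast) and Pecam1 (endothelium) higher. In RNA-seq Siglech, Krt5 (thymic epithelium) and Hbb-bs (erythroid) were called lower, and Pdgfrb and Pecam1 higher. The calls in these last 2 sentences were lost with the block. Of the 3 erythroid markers tested, 1 was higher and 2 were lower in each assay. Of the 3 fibroblast markers tested in RNA-seq, 1 was higher and 2 were lower, and all 4 were higher in footprints. In RNA-seq all 4 dendritic and all 3 tested thymic epithelial markers were lower, and the 2 tested endothelial markers were higher. Of 8 immediate early genes, a sign of cell handling, 7 were tested in footprints and 4 were called (2 higher, 2 lower in KO), of which Egr1 held with the block. Their summed footprints were 175.9 to 216.4 CPM in WT against 230.9 to 288.3 CPM in KO, and their part in the results below was not tested.

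Libraries that carry the same replicate number in WT and KO went against each other. Across 5663 genes of RNA-seq their deviations from the group means correlated at -0.980 to -0.991, and across 5305 genes of footprints at -0.994 to -0.995, while differently numbered libraries gave 0.101 to 0.746 and 0.408 to 0.638. The deposited counts are described as adjusted, and the method is not given in the sources used here. SDs and p-values below therefore measure the spread between these adjusted libraries and may not measure that between mice.

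Hspa8, the constitutive HSP70 of the cytosol that also strips clathrin coats and feeds chaperone-mediated autophagy, had far fewer reads in KO thymocytes in both assays. In RNA-seq its level was 151.0, 100.2 and 133.7 CPM in WT libraries 1 to 3 and 16.0, 25.2 and 18.5 CPM in KO libraries 1 to 3, from 2648 WT and 366 KO reads. All 3 KO libraries lay below every WT library. The means were 128.3 ± 25.8 and 19.9 ± 4.77 CPM (SD, n = 3 each), 6.44-fold lower in KO. In footprints Hspa8 held 194.4, 139.1 and 182.9 CPM in WT against 9.72, 14.1 and 10.3 CPM in KO, from 7830 and 365 reads. Again the groups were far apart, with means of 172.1 ± 29.2 and 11.4 ± 2.40 CPM, 15.1-fold lower. The fitted log2 fold changes (edgeR) were -2.72 ± 0.21 (SE) in RNA-seq and -3.86 ± 0.19 in footprints. In the fit of both assays together, footprints fell further than RNA by -1.14 ± 0.30 on the log2 scale. These values belong to the contrast that picked the gene. The authors' deposited table, for the same contrast, gives Hspa8 log2 fold changes of -2.174 in RNA-seq and -3.186 in footprints.

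**Figure D1:**
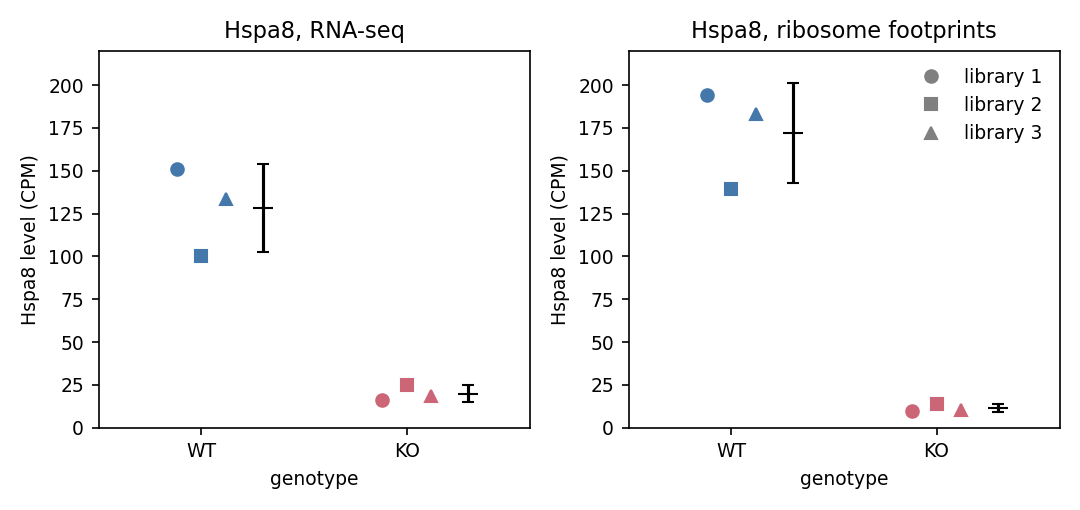
Hspa8 level in CPM (vertical axis) in each WT and KO library of RNA-seq (left) and ribosome footprints (right), with marker shapes for libraries 1 to 3 and a bar for the mean ± SD. KO libraries sit between 16.0 and 25.2 CPM in RNA-seq and between 9.72 and 14.1 CPM in footprints, below every WT library.

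Reads that map equally well to several places were set apart by the counting (13.1% to 20.5% of RNA-seq reads and 17.7% to 18.6% of footprint reads), so the Hspa8 values cover only stretches that differ from its copies. No gene row in the tables is named as a pseudogene of Hspa8. Hspa9-ps1, the one row named as a pseudogene of a member, had 0 reads. The small nucleolar RNAs Snord14c, Snord14d and Snord14e, which lie in Hspa8 introns, had 0 reads in all 12 libraries. The part of near-identical copies in the Hspa8 values was not tested.

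Hspa1a, the stress-inducible HSP70 of the cytosol, was at the edge of detection. It had 0, 2 and 1 reads in WT and 3, 1 and 0 in KO RNA-seq libraries, and 5, 4 and 3 in WT and 0, 4 and 2 in KO footprint libraries. No library passed 5 reads, a count of 0 allows up to 3, and the gene did not pass the filter on low counts in any fit. Its near-identical copy Hspa1b had 4, 4 and 4 against 3, 1 and 3 reads in RNA-seq and 12, 10 and 6 against 0, 6 and 3 in footprints. Reads shared by this pair cannot be told apart, so a difference was not detectable at this depth.

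The 8 other members passed the filter, and each was tested in both assays with edgeR's quasi-likelihood test, with Benjamini-Hochberg adjusted p-values (false discovery rate, FDR) over all genes tested and a call at FDR under 0.05. In RNA-seq 0 of 8 were called, 1 had an unadjusted p under 0.05, DESeq2 also called 0, and 6.91% of all 13652 genes were called. Their log2 fold changes ran from -0.35 for Hsph1 to 0.37 for Hsp90aa1, with a median of -0.01. The WT and KO libraries of all 8 overlapped, whereas 30.9% of all genes tested had groups that did not. In footprints 2 of 8 were called, Hsph1 and Hspa5, both lower in KO. Over all 13509 genes tested 17.6% were called, and 8.34% were called lower. The groups of 4 of the 8 did not overlap, beside 38.1% of all genes. With the replicate number as a block, Hsph1 alone kept its call, and the shares of all genes called fell to 3.02% in footprints and 0.806% in RNA-seq.

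**Figure D2:**
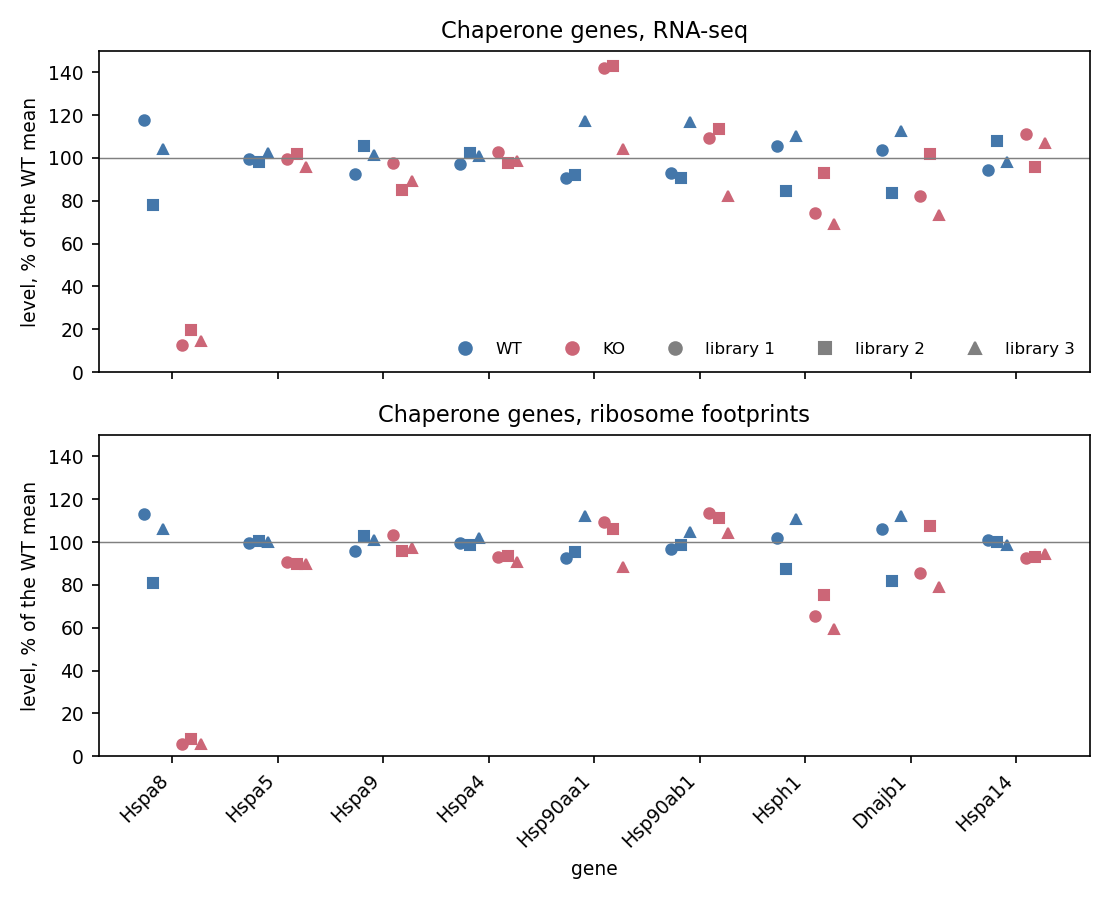
Level of each of the 9 members that passed the filter in every library, as a percentage of that gene's WT mean, in RNA-seq (top) and footprints (bottom), with colours for genotype and shapes for libraries 1 to 3. Hspa8 stands apart in both panels, and in footprints the Hsph1, Hspa5, Hspa4 and Hspa14 groups also do not overlap.

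Hsph1 (HSP105), the inducible HSP110 exchange factor that also holds unfolded proteins itself, fell in KO footprints. It had 374.8, 321.0 and 408.1 CPM in WT libraries 1 to 3 and 241.7, 277.7 and 218.0 CPM in KO libraries 1 to 3. The highest KO library lay below the lowest WT library, and the means were 368.0 ± 44.0 and 245.8 ± 30.1 CPM (SD, n = 3 each). The log2 fold change was -0.57 ± 0.12 (edgeR FDR = 0.0202, FDR = 0.0377 with the replicate block). Leaving out 1 library at a time gave an FDR of 0.0217 to 0.0618, and the call was lost without WT library 1, KO library 1 or KO library 3. In RNA-seq Hsph1 had 113.9, 91.2 and 119.1 CPM in WT against 80.2, 100.3 and 74.95 CPM in KO. There KO library 2 lay above WT library 2, and the log2 fold change of -0.35 ± 0.14 missed the threshold (edgeR FDR = 0.199). The heat shock element printed above for Hsph1 lies just downstream of both annotated starts.

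Hspa4 (APG-2), the constitutive HSP110 exchange factor, had 521.5, 515.9 and 531.8 CPM in WT against 486.0, 490.1 and 473.5 CPM in KO footprints. These groups did not overlap, but the log2 fold change of -0.11 ± 0.03 missed the threshold (edgeR FDR = 0.0614). In RNA-seq its means were 180.9 ± 4.58 and 180.5 ± 4.84 CPM (SD, n = 3 each).

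Hspa5 (BiP), the HSP70 of the ER and sensor of the unfolded protein response, had a small drop in footprints. Its WT libraries held 989.3, 996.8 and 992.2 CPM and its KO libraries 901.7, 892.8 and 893.3 CPM. Groups were apart by more than their spread, with a log2 fold change of -0.15 ± 0.03 (edgeR FDR = 0.0208). The call was lost with the replicate block (FDR = 0.423), with DESeq2 (adjusted p = 0.106), with no filter on low counts (edgeR FDR = 0.121) and without any 1 library (edgeR FDR = 0.0641 to 0.0903). In RNA-seq Hspa5 had 174.9, 172.1 and 179.8 CPM in WT against 174.8, 178.4 and 168.4 CPM in KO, groups that overlapped. The authors' deposited table lists Hspa5 and Hsph1 as significantly down in footprints and none of the 8 as changed in RNA-seq.

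Hspa9 (mortalin), the HSP70 of mitochondria that pulls proteins through the inner membrane, had 269.2 ± 9.64 CPM in WT against 266.0 ± 10.1 CPM in KO footprints, and 108.0 ± 7.21 and 97.9 ± 7.09 CPM in RNA-seq (SD, n = 3 each). Neither difference passed the test (edgeR FDR = 0.839 and 0.341). Hspa14, an HSP70 relative that works with a J-domain partner at the ribosome, had 93.8, 93.1 and 91.7 CPM in WT against 86.1, 86.5 and 87.7 CPM in KO footprints. Those groups did not overlap, and the log2 fold change of -0.10 ± 0.03 missed the threshold (edgeR FDR = 0.0764).

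Dnajb1 (HSP40), the inducible J-domain partner of cytosolic HSP70, had 174.9, 135.2 and 185.0 CPM in WT against 140.9, 177.3 and 130.6 CPM in KO footprints. WT library 2 was the lowest of its group and KO library 2 the highest of its own, which was also so for Hspa8 and Hsph1, and for all 3 genes in RNA-seq. Because same-numbered libraries mirror each other across genes, as described above, these are not separate observations. The Dnajb1 groups overlapped, with log2 fold changes of -0.12 ± 0.15 in footprints (edgeR FDR = 0.633) and -0.23 ± 0.15 in RNA-seq (edgeR FDR = 0.418).

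Hsp90ab1, the constitutive HSP90 of the cytosol, had 2378, 2418 and 2566 CPM in WT against 2782, 2731 and 2559 CPM in KO footprints. KO library 3 lay just below WT library 3, and the log2 fold change of 0.13 ± 0.05 missed the threshold (edgeR FDR = 0.118). Hsp90aa1, the inducible HSP90, had 56.4, 57.1 and 73.0 CPM in WT against 88.3, 88.7 and 64.8 CPM in KO RNA-seq libraries. KO library 3 fell within the WT range, and the log2 fold change of 0.37 ± 0.16 missed the threshold (edgeR FDR = 0.226). In footprints the Hsp90aa1 means were 119.0 ± 12.8 and 120.5 ± 13.5 CPM (SD, n = 3 each).

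**Figure D3:**
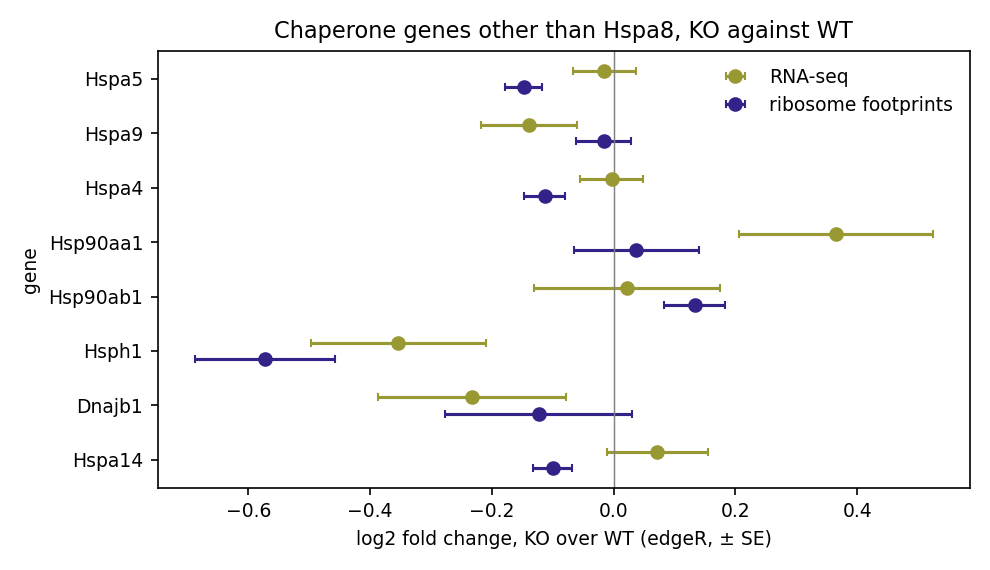
Log2 fold change of KO over WT (horizontal axis, edgeR, bars ± SE) for the 8 tested members other than Hspa8, in RNA-seq and footprints. Hsph1 has the lowest value in both assays, at -0.35 and -0.57, and the other 7 lie between -0.23 and 0.37.

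Translation was tested in 1 fit of all 12 libraries, by the term that lets the genotype act differently on footprints and on RNA. Of the 8 members other than Hspa8 that were tested, 0 were called by edgeR or DESeq2 and 0 had an unadjusted p under 0.05, beside 0.211% of all 11854 genes called. Their log2 values ran from -0.33 ± 0.19 for Hsp90aa1 to 0.12 ± 0.09 for Hspa9.

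Footprints were then set against RNA-seq within WT thymocytes, a comparison that uses no KO library. Its WT libraries were also 1 side of the contrast that picked Hspa8, so the Hspa8 value is not independent of that choice. Each assay was scaled by itself, so the ratio is relative to the typical gene. All 9 members that passed the filter had more footprints than RNA-seq reads on this scale and were called in the fit of all WT libraries (edgeR FDR of at most 0.018), beside 33.9% of all 14385 genes called in that direction. Hspa1a, with 3 RNA-seq and 12 footprint reads, did not pass. The median log2 ratio of all genes was -0.34, with quartiles of -1.54 and 0.68. Hspa8 had the lowest ratio of the 9, at 0.39 ± 0.14 (SE, edgeR FDR = 0.018), which is the 68.3rd percentile of all genes. Its call was lost without RNA-seq WT library 2 (0.25, edgeR FDR = 0.0814), footprint WT library 1 (0.29, FDR = 0.0936) or footprint WT library 3 (0.35, FDR = 0.0613), and leaving out each WT library gave ratios of 0.25 to 0.52. Hspa14 followed at 0.69 ± 0.08, then Hsp90aa1 at 0.90 ± 0.11 and Dnajb1 at 0.99 ± 0.12, a pair that differed by less than their errors. Hspa9 was at 1.28 ± 0.08 and Hspa4 at 1.496 ± 0.072. Hsp90ab1 and Hsph1, at 1.69 ± 0.10 and 1.73 ± 0.11, could not be ordered. Hspa5 was highest at 2.46 ± 0.07, the 96.8th percentile. Footprints cover coding sequence and RNA-seq reads whole transcripts, and the part of untranslated sequence in this order was not tested.

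**Figure D4:**
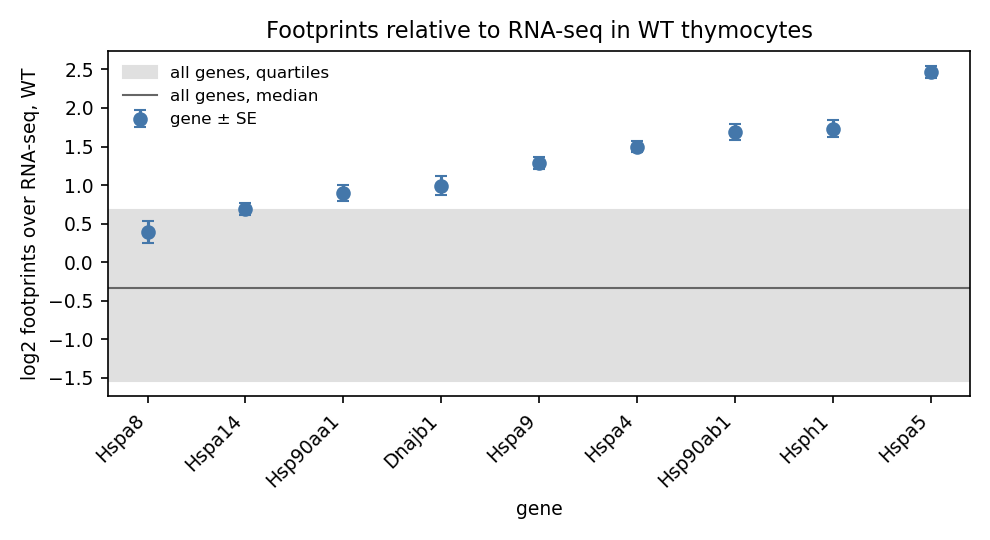
Log2 ratio of footprints to RNA-seq in WT thymocytes (vertical axis, edgeR, bars ± SE) for the 9 members tested, in rising order, over the median and quartiles of all 14385 genes. Hspa8 and Hspa14 lie near or below the upper quartile of 0.68, and the other 7 lie above it.

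Around these members stands a list of 54 other genes of the chaperone network. In RNA-seq 48 were tested and 2 were called, both lower in KO, beside 6.91% of all genes, with a median log2 fold change of -0.02 beside 0.00 for all genes. One was Hspa12a, a distant HSP70 relative, with 1.74, 1.53 and 1.65 CPM in WT against 0.437, 0.472 and 0.497 CPM in KO, a low level resting on 34 and 9 reads (log2 fold change -1.76 ± 0.20, edgeR FDR = 0.0135). The other was Dnajb11, a J-domain partner of Hspa5 in the ER, with 54.3 ± 1.72 CPM in WT against 41.8 ± 1.41 CPM in KO (SD, n = 3 each, edgeR FDR = 0.0198). Neither held with the replicate block (FDR = 0.196 and 0.404). The Hspa12a fold change had an SE of 0.52 with that block and 0.79 with DESeq2, larger than the 0.20 of the main fit.

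In footprints 49 network genes were tested and 7 were called, 3 higher and 4 lower in KO, beside 17.6% of all genes, with a median of -0.05 beside -0.01 for all genes. Among the HSP70 and HSP110 genes Hyou1, an ER member, fell by 0.16 on the log2 scale. Among exchange factors Bag4 rose by 0.28, and among J-domain genes Dnajc1 rose by 0.17. HSP90 and its cochaperones held the other 4 calls, of 10 tested, to be read beside the same 17.6%. Ahsa1, which stimulates the HSP90 ATPase, fell from 230.7 ± 12.2 to 192.4 ± 10.6 CPM. Chordc1 fell from 261.0 ± 5.97 to 218.4 ± 4.94 CPM. Fkbp5, an immunophilin of steroid receptor complexes, fell from 704.8 ± 30.9 to 598.3 ± 25.2 CPM, while its RNA-seq level was 590.7 ± 51.3 in WT and 704.1 ± 68.5 in KO. Ptges3 (p23), which stabilises closed HSP90, rose from 10.7 ± 0.377 to 15.6 ± 0.545 CPM, the largest called rise in the list (log2 fold change 0.54 ± 0.06, edgeR FDR = 0.00356; all SD with n = 3). None of the 7 calls held with the replicate block, where edgeR FDRs were 0.101 to 0.413, and DESeq2 called the 4 genes of the HSP90 group. The Ptges3 fold change had an SE of 0.15 with the block and 0.17 with DESeq2, larger than the 0.06 of the main fit.

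The ER paralog Hsp90b1, the mitochondrial pair Hspd1 and Hspe1 and the regulator Hsf1 were not called in either assay. Hspd1, whose promoter window is printed above, had 148.3 ± 9.98 CPM in WT against 139.9 ± 9.88 CPM in KO footprints (SD, n = 3 each), and Hsf1 had 25.5 ± 0.591 and 25.9 ± 0.667 CPM. In translation 0 of 47 network genes were called by edgeR, 7 had an unadjusted p under 0.05, and DESeq2 called Fkbp5 (log2 value -0.50 ± 0.12, adjusted p = 0.0192).

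**Figure D5:**
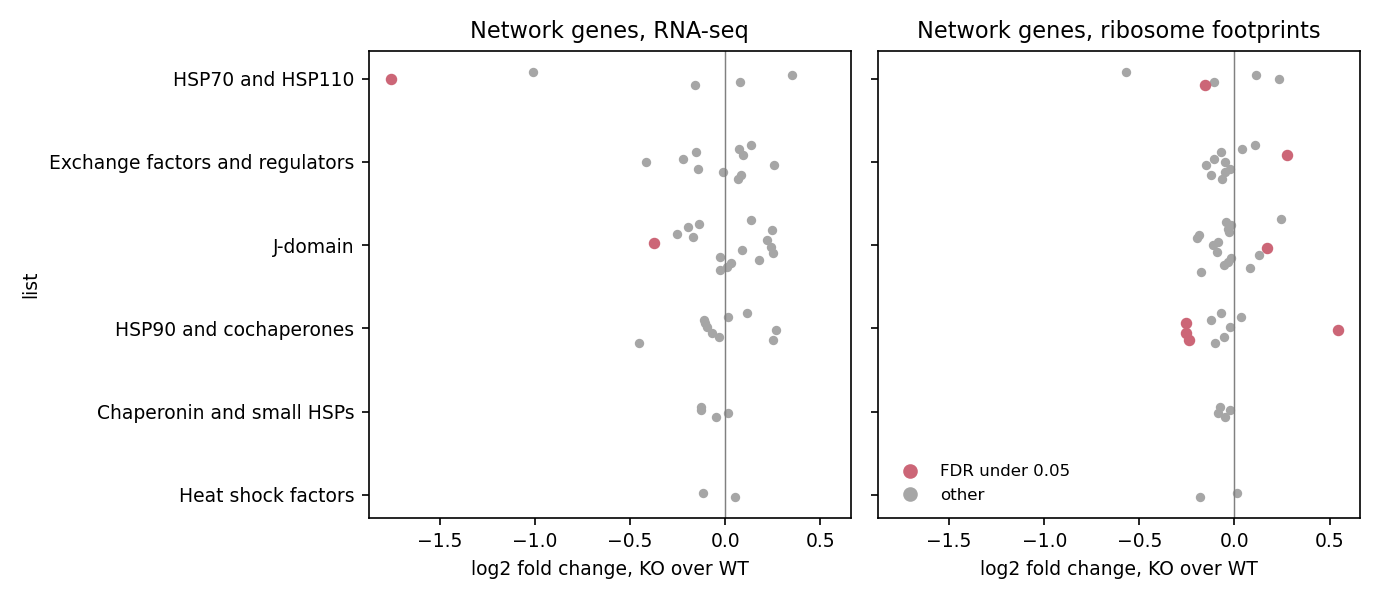
Log2 fold change of KO over WT (horizontal axis) of each tested network gene, by list, in RNA-seq (left) and footprints (right), coloured where the edgeR FDR was under 0.05. Calls number 2 of 48 in RNA-seq and 7 of 49 in footprints, beside 6.91% and 17.6% of all genes.

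Sorted by their inducer, 15 genes are textbook targets of heat shock factor 1, and 12 were tested. In RNA-seq 0 were called by edgeR or DESeq2, 2 had an unadjusted p under 0.05, and the median log2 fold change was -0.12. In footprints 3 were called, Hsph1, Chordc1 and Ahsa1, all lower in KO, and 1 held with the replicate block. The summed footprints of the 15 were 1852 to 2055 CPM in WT against 1612 to 1779 CPM in KO, groups that did not overlap. Hsph1, with means of 368.0 and 245.8 CPM, is part of this sum. The sums of the ER stress list below (3472 to 3621 against 3250 to 3398 CPM) and of the 54 network genes (6909 to 7010 against 6565 to 6642 CPM) did not overlap either. Those of the 9 members other than Hspa8 did (4871 to 5182 against 4730 to 5046 CPM). RNA-seq sums went the other way for the ER stress list, at 1126 to 1167 CPM in WT against 1168 to 1212 CPM in KO. The same held for the 54 network genes (3862 to 3937 against 3984 to 4123 CPM). For the 15 heat shock factor 1 targets the RNA-seq sums overlapped (704.5 to 759.0 against 672.4 to 734.0 CPM). How often sums of other gene sets do not overlap was not tested. Of 11 genes induced by ER stress, 4 were called in footprints. Hspa5, Hyou1 and Manf, a secreted ER protein, fell, and Herpud1, of ER-associated degradation, rose. None of the 4 held with the replicate block, and in RNA-seq Dnajb11 was the only one called. Calls made up 3 of 12 and 4 of 11, beside the 17.6% of all genes given above.

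Likeness to Hspa8 was measured as the Pearson correlation of log2 CPM over the 12 libraries, each gene centred within its assay, among 8055 genes. These libraries share their genotype groups and the mirrored deviations, so the values are a description. Hspa8 was picked for its fall in KO, so a high r mostly marks genes that were lower in KO. The correlation takes no account of the size of a change. Kremen1, a Wnt pathway receptor, was most alike (r = 0.991), followed by Aplp2 (0.987), Daam1 (0.986), Atp2b4 (0.980) and Mak16 (0.979). Kremen1 had log2 fold changes of -1.46 in RNA-seq and -1.63 in footprints. Aplp2, Daam1, Atp2b4 and Mak16 changed less, from -0.16 (Aplp2) to -0.68 (Daam1) in RNA-seq. In footprints they ran from -0.20 (Mak16) to -0.71 (Daam1). Most opposed were Pttg1, the mitotic inhibitor securin (r = -0.995), Tcn2 (-0.989), Gfpt1 (-0.989), Ifngr1 (-0.987) and Capn3 (-0.987). Among the members Hsph1 (r = 0.89) and Hspa5 (0.82) were closest to Hspa8, at the 97.8th and 95.1st percentiles of all genes. Hspa5 had log2 fold changes of only -0.015 in RNA-seq and -0.15 in footprints. These ranks restate the contrast that picked Hspa8 and are not separate evidence of a link. Hspa4 was at 0.68, Dnajb1 at 0.51, Hspa9 at 0.30 and Hspa14 at 0.12. The HSP90 pair had weak negative values, at -0.25 for Hsp90ab1 and -0.35 for Hsp90aa1, the 35.9th and 31.0th percentiles of all genes.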

How the data were processed

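Whole-number counts per gene were deposited by the authors as 1 table per assay, and the sample descriptions call them adjusted. FastQC, Bowtie2 2.5.1, STAR 2.7.10a, HTSeq 2.0.3 and DESeq2 1.40.2 are named without roles, per the submitters' processing notes. Neither the genome build nor the adjustment is given in the sources used here. Of all reads, 27.0% to 28.5% (RNA-seq) and 72.3% to 73.1% (footprints) were in gene rows, and the 5 rows that name no gene were left out. The authors' deposited tables of comparisons, with log2 fold changes and adjusted p-values, were used for symbols and their own values, and 12 per-library columns in them were not used. Of 55335 identifiers, 54587 matched the gene name table with their version and 567 without it, 1 took its symbol from the authors' table, and 180 had none.

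Counts were tested with edgeR 4.0.16 (R 4.3.3): TMM scaling, filterByExpr with a minimum count of 10, quasi-likelihood test, FDR under 0.05. CPM used TMM-scaled library sizes, and log2 CPM had a prior count of 2. Scripts were tested on simulated data. Alternatives were RLE size factors, no filter, a replicate block, DESeq2 1.42.0 and leaving out each library. Named network genes were those called in any KO against WT fit, plus Hspa1b, Hsp90b1, Hspd1, Hspe1 and Hsf1. Likeness took genes whose average log2 CPM reached 3 in both assays and named 5 at each end. Members and lists were chosen with earlier results of these data known.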

Additional observations from a re-analysis of the deposited data

How the results depend on the processing

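Same-numbered WT and KO libraries are tied in the deposited counts, since they deviate from their group means in opposite directions. The main fits did not take the numbers as a pairing and treated all libraries as independent, so their calls may be too many. The share of all genes called fell from 17.6% to 3.02% in footprints and from 6.91% to 0.806% in RNA-seq when the block was added. With the replicate block, 1 of the 8 members other than Hspa8 tested in footprints was called in place of 2, and 0 of the network genes were called in RNA-seq (in place of 2) and 0 in footprints (in place of 7). DESeq2 called 1 such member in footprints, 0 network genes in RNA-seq, 4 in footprints and 1 in translation. With no filter on low counts, 1 such member was called in footprints and 1 network gene in translation, and the log2 fold change of Hspa4 in RNA-seq turned from -0.0034 to 0.0017. Leaving out 1 library at a time gave 0 to 1 such members in footprints, 0 to 1 network genes in RNA-seq and 2 to 3 in footprints, with fewer samples in each fit. The cause of the other differences was not tested. Signs turned only among values that were not called. In RNA-seq, log2 fold changes with 1 library left out ran from -0.21 to 0.021 for Ahsa1, -0.2 to 0.0043 for Chordc1, -0.069 to 0.15 for Hsp90ab1, -0.032 to 0.011 for Hspa4 and -0.036 to 0.0024 for Hspa5. In footprints they ran from -0.017 to 0.12 for Hsp90aa1 and -0.047 to 0.0034 for Hspa9. In translation they ran from -0.044 to 0.24 for Dnajb1, -0.027 to 0.2 for Hsp90ab1 and -0.076 to 0.07 for Hyou1. RLE size factors left 60 of 61 values for single genes with the same direction and call. Of the members, 8 or 9 were called in footprints against RNA-seq in WT with 1 library left out, Hspa8 being the one lost without RNA-seq WT library 2, footprint WT library 1 or footprint WT library 3, and 9 under the other alternatives. Among the members other than Hspa8, the calls in RNA-seq and translation stayed at 0 under every alternative run.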

Other observations

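The genes beside Hspa8 in RefSeq order on chromosome 9 were read as a description, chosen after the data were seen. Of the 5 genes on each side that were tested in both assays, the nearest on one side, Gramd1b, a sterol transporter, was higher in KO with log2 fold changes of 1.07 in RNA-seq and 0.97 in footprints (edgeR FDR = 0.000373 and 0.000333). It was called with the replicate block too (FDR = 0.00221 and 0.000805). Ubash3b, a phosphatase that restrains T cell receptor signalling, lay second on the other side and was lower, at -0.63 and -0.47 (edgeR FDR = 0.0215 and 0.0153), a call lost with the replicate block in both assays (FDR = 0.316 and 0.284). Tbrg1 and Vwa5a were higher in footprints, at 0.28 and 0.40, and lost their calls with the block (FDR = 0.127 and 0.0833). The other 6, Siae, Zfp202, Crtam, Sorl1, Sc5d and Tbcel, were not called in either assay.

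RefSeq lists Gm15459, Gm8141 and Gm9436 as pseudogenes, and the table used gives no parent gene for them. They are described here with no test, chosen for their high KO footprint counts after the values were seen. Gm15459 had 1.20, 0.391 and 0.567 CPM in WT against 77.9, 114.5 and 102.1 CPM in KO footprints, and its RNA-seq means were 0.486 ± 0.302 and 21.4 ± 2.09 CPM (SD, n = 3 each). Gm8141 had 1.17 ± 0.478 CPM in WT against 19.0 ± 3.74 CPM in KO footprints, and Gm9436 had 1.48 ± 0.481 and 18.3 ± 3.25 CPM. Whether any of these rows shares sequence with Hspa8 was not tested.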
